A study of Sus scrofa with 8 samples.

Results

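The genes described are the xenobiotic and steroid metabolising enzymes measured in porcine oviductal epithelial cells kept in primary culture. They were chosen by gene symbol alone: any symbol of the array annotation that begins as a cytochrome P450 (CYP), UDP-glycosyltransferase (UGT), glutathione transferase (GST, MGST), aldehyde dehydrogenase (ALDH), aldo-keto reductase (AKR), alcohol dehydrogenase (ADH), sulfotransferase (SULT), hydroxysteroid dehydrogenase (HSD) or flavin monooxygenase (FMO). This gave 61 of the 10900 genes tested. The rule itself used no measured value, but the families were chosen with earlier results of these data known. The ALDH1A genes, which make retinoic acid, are not among the 61.

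Oviducts came from crossbred landrace gilts, 45 animals of about 9 months with 2 regular oestrous cycles, from a commercial herd. The epithelium was cut away with blades, digested with collagenase and then trypsin, and the cells were grown in DMEM with fetal bovine serum and antibiotics. Expression was measured on 8 Affymetrix arrays, 2 at each of 4 times in culture: 24h, 7 days, 15 days and 30 days. All groups were untreated cells of this culture and differ, per the labels, only in time. By their titles the 2 arrays at each time are biological replicates, and the RNA was pooled; which animals entered which pool is not stated. Hence p-values measure only the spread between these arrays, which may be partly technical.

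These families carry out the chemical handling of foreign compounds, steroids, bile acids, vitamins and lipid aldehydes. Oxidising and reducing enzymes (P450s, flavin monooxygenases, dehydrogenases and aldo-keto reductases) add or expose a polar group, and conjugating enzymes (glutathione, glucuronosyl and sulfate transferases) then attach a larger one so that the product can leave the cell. In the oviduct the same steps can alter how much progesterone, oestradiol, cortisol and retinoic acid is available within epithelial cells. They can also limit oxidative damage around gametes and embryos.

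All values are log2 expression values as deposited, so a difference of 1 is a doubling. Array medians over all probe sets were 4.69 to 4.77, and arrays of the same time correlated at 0.990 to 0.995. The epithelial markers EPCAM and CLDN7 were present at 24h (means of 11.23 and 9.41) and fell to 3.31 and 3.47 at 30 days. The keratins KRT8 and KRT19 had means of 11.05 and 11.44 at 24h and of 11.34 and 11.28 at 30 days, and neither was called there; of 9 epithelial markers measured, 7 were lower and 0 higher at 30 days. Of 6 oviductal secretory markers measured, 2 were higher and 3 lower at 30 days: OVGP1 (-7.49), MUC1 (-5.56) and WFDC2 (-1.49) were lower, while CP (4.80) and C3 (3.24) were higher. Of 10 ciliated cell markers measured, 3, 4 and 3 were lower at 7, 15 and 30 days and 0 higher, among them SPAG6 (-2.08 at 30 days) and DNAH7 (-2.23), while the regulator FOXJ1 (mean of 5.25 at 24h, -0.73 at 30 days) was not called. The summed linear level of 14 of 16 listed fibroblast and stromal markers on the 2 arrays of each time ran from 561 and 596 (24h) through 3887 and 4516 (7 days) and 10037 and 10089 (15 days) up to 11900 and 12735 (30 days). That of 9 of 14 listed epithelial markers was 14020 to 14692, 9580 to 9962, 9274 to 9944 and 5250 to 6457. Of the 14 stromal markers, 10 were higher and 0 lower at 30 days, and DCN, PDGFRB, TWIST1 and TWIST2 were not called. Of 7 smooth muscle and myofibroblast markers measured, 6 were higher and 0 lower at 30 days, with a median change of 2.76. In such bulk RNA, fewer cells of a type and less RNA per cell cannot be told apart, and the part of this shift in the enzyme values below was not tested.

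More of these enzymes were called higher than lower against 24h, at each of the 3 later times, while the steepest changes went both ways. Against 24h, the mitochondrial folate enzyme ALDH1L2 rose 22.1-fold by 30 days, whereas the glutathione transferase GSTM3 fell 27.1-fold, the vitamin D hydroxylase CYP24A1 fell 25.3-fold and HSD11B1, which regenerates active cortisol, fell 7.03-fold. Called means an adjusted p (Benjamini-Hochberg, 10900 genes) under 0.05 in limma's moderated test. The moderated F test over the 4 times called 35 of the 61 enzymes, 57.4%, beside 46.3% of all genes. Called in that test and with highest and lowest group means at least 1 log2 unit apart were 24 enzymes, beside 21.3% of all genes. The median distance between the highest and lowest group mean was 0.62 for the enzymes and 0.44 for all genes, at a median level of 5.21 and 5.22.

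At 7 days against 24h, 23 enzymes were called, 37.7% beside 33.7% of all genes. Of these, 18 were higher (29.5% of enzymes, 18.3% of all genes) and 5 lower (8.20% and 15.4%). At 15 days 30 were called, 49.2% beside 37.4%, with 22 higher (36.1% and 19.3%) and 8 lower (13.1% and 18.1%). At 30 days 29 were called, 47.5% beside 41.2%, with 20 higher (32.8% and 20.2%) and 9 lower (14.8% and 21.1%). These 3 comparisons share the 24h arrays, so their counts are not separate evidence. Higher at all 3 later times were 15 enzymes, and lower at all 3 were CYP24A1, GSTM3, HSD11B1 and UGT1A6. The shares of all genes called at all 3 times were not counted, so these numbers do not set the enzymes apart.

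The split depends on where each array is centred. Centring every array on the median of its 10900 genes, a median that moved by 0.17, 0.17 and 0.04 from 24h to the 3 later times, gave 17 higher and 11 lower enzymes at 7 days, 60.7% higher against 78.3% as deposited. At 15 days it gave 19 and 11, 63.3% higher against 73.3%. The same step moved all called genes from 54.3% to 36.0% higher at 7 days and from 51.6% to 34.3% at 15 days. At 30 days the split changed little, with 18 higher and 9 lower. No enzyme whose call differed under centring turned its direction. The size of the shifts fixed this outcome, since they were at most 0.17 and called changes against 24h were at least 0.34.

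Between the later times the calls were fewer. From 7 to 15 days 17 enzymes were called, 27.9% beside 13.3% of all genes, 11 higher and 6 lower (6.58% and 6.72% of all genes in each direction). That count fell to 11 without replicate 2 of 7 days, to 10 without replicate 1 of 15 days and to 9 without replicate 2 of 15 days. Such fits leave 1 array at the time concerned, and the share of all genes called in them was not counted. Their counts cannot be set beside the 13.3%. From 15 to 30 days 12 were called, 19.7% beside 10.0%, with 5 higher and 7 lower (3.94% and 6.10%). Leaving out each array in turn gave 8 to 13 there. Centring, with a shift of -0.13, gave 9 higher and 6 lower, 60.0% higher against 41.7%. From 7 to 30 days 22 were called, 36.1% beside 26.0%, 11 in each direction (11.8% and 14.1%), and centring, again with a shift of -0.13, gave 15 higher and 9 lower, 62.5% higher against 50.0%.

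**Figure D1:**
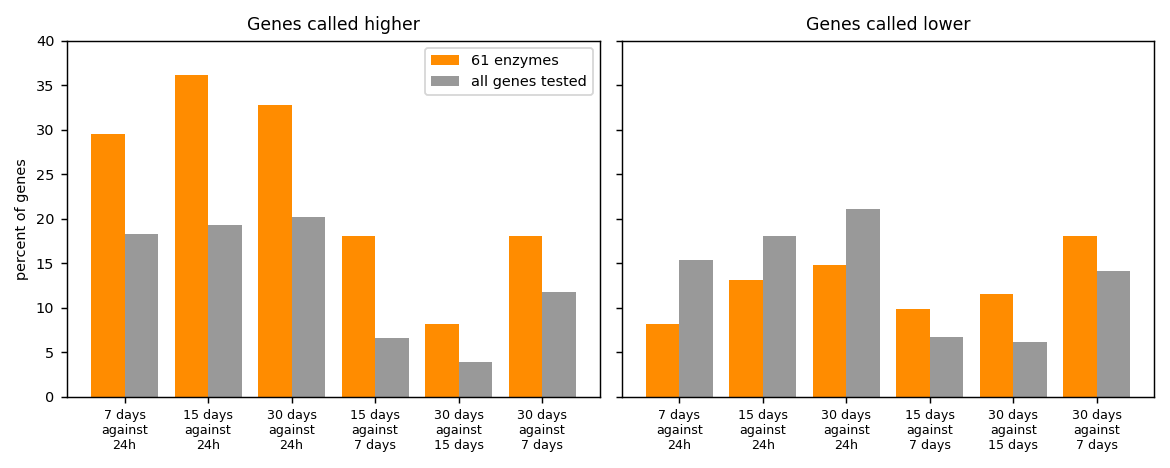
Percent of genes called higher (left) and lower (right) in each of the 6 comparisons of times, for the 61 enzymes (orange bars) and for all 10900 genes tested (grey bars). Against 24h the enzymes had larger shares called higher than all genes (29.5% against 18.3% at 7 days) and smaller shares called lower (8.20% against 15.4%).

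The 61 enzymes were put in 14 groups by role, as the plot of all changes against 24h shows. Of the 61, 28 were called in no comparison with 24h, and the share of all genes called in none was not counted.

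**Figure D2:**
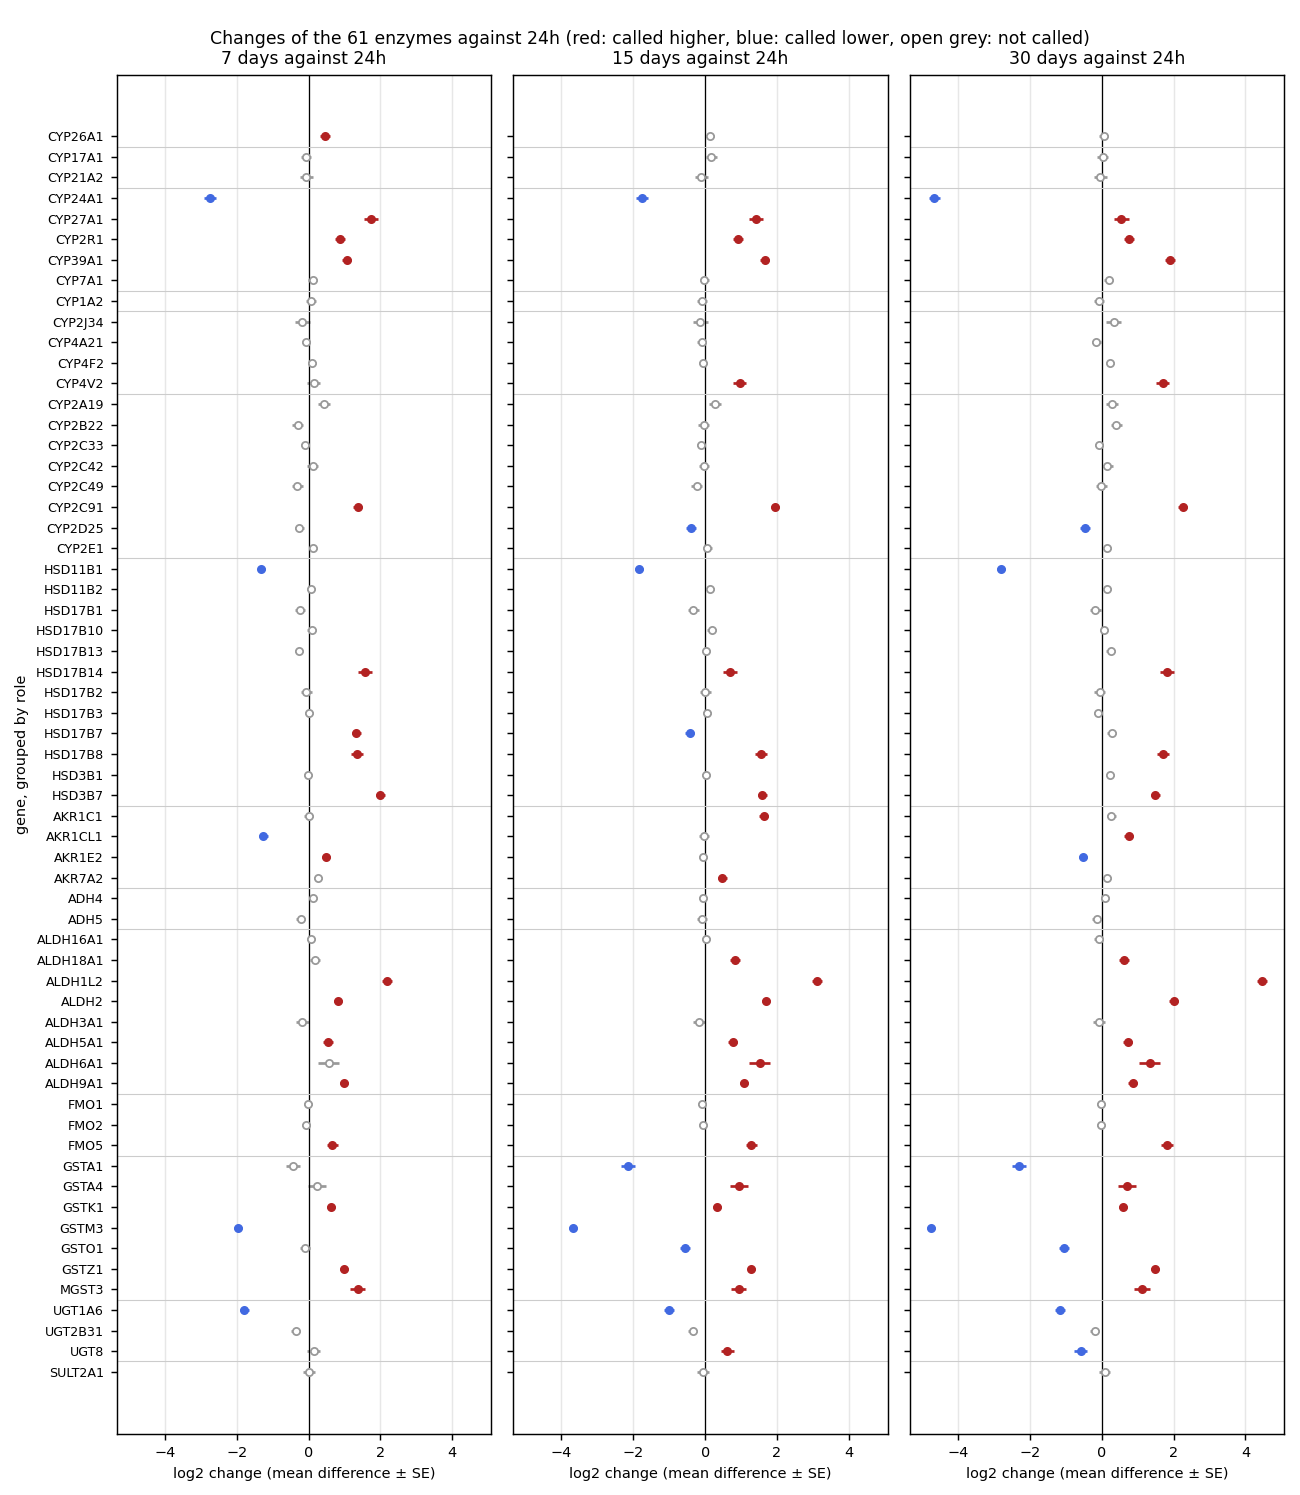
Log2 change of each of the 61 enzymes at 7, 15 and 30 days against 24h (points, with the SE of the change as bars), grouped by role with grey lines between groups. Filled red points were called higher, filled blue points lower, and open points were not called; GSTM3 and CYP24A1 lie farthest left at 30 days (-4.76 and -4.66) and ALDH1L2 farthest right (4.47).

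Among the P450s of sterols, bile acids and vitamin D, 4 of 5 were called at each time against 24h. Of all genes 33.7%, 37.4% and 41.2% were called at 7, 15 and 30 days. CYP27A1, CYP2R1 and CYP39A1 were higher and CYP24A1 lower. CYP24A1, which starts the breakdown of active vitamin D, had values of 8.17 and 7.70 at 24h, 5.24 and 5.13 at 7 days, 6.24 and 6.09 at 15 days and 3.36 and 3.18 at 30 days. No 2 times overlapped: it was highest at 24h, partly back at 15 days and lowest at 30 days. The change from 24h was -2.74 ± 0.16 (SE) at 7 days, -1.76 ± 0.16 at 15 days and -4.66 ± 0.16 at 30 days (adjusted p = 2.03e-06, 2e-05 and 2.3e-08). The return from 7 to 15 days was 0.98 ± 0.16 (adjusted p = 0.00321), and the later drop from 15 to 30 days was -2.89 ± 0.16 (adjusted p = 6.31e-06).

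CYP2R1, which carries out the first hydroxylation of vitamin D, was 0.88 ± 0.14 higher at 7 days, 0.92 ± 0.14 at 15 days and 0.77 ± 0.14 at 30 days (SE; adjusted p = 0.00107, 0.00064 and 0.00154). Its arrays were at 5.35 and 5.44 at 24h and between 6.10 and 6.45 on the later 6 arrays, with no overlap. CYP39A1, an oxysterol hydroxylase of bile acid synthesis, read 6.63 and 6.67 at 24h, 7.89 and 7.53 at 7 days, 8.31 and 8.32 at 15 days and 8.49 and 8.62 at 30 days. Each time lay above the one before without overlap. It rose by 1.06 ± 0.13 at 7 days, 1.66 ± 0.13 at 15 days and 1.90 ± 0.13 at 30 days (adjusted p = 0.000225, 9.51e-06 and 2.54e-06). Its second probe set gave a 7-day change of 0.46 that was not called (adjusted p = 0.237), and 1.25 and 1.74 at 15 and 30 days, both called.

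CYP27A1, the mitochondrial hydroxylase of the sterol side chain, was transient. It read 3.62 and 3.66 at 24h, 5.42 and 5.32 at 7 days, 5.36 and 4.77 at 15 days and 3.97 and 4.41 at 30 days. The arrays of 7 and 15 days overlapped and lay above those of 24h and 30 days. It rose by 1.73 ± 0.20 at 7 days and 1.42 ± 0.20 at 15 days (SE; adjusted p = 0.000126 and 0.000324). The 30-day value, 0.55 ± 0.20 above 24h, was at the threshold (adjusted p = 0.0495) and was lost under median centring (0.51, adjusted p = 0.0583), with every probe set tested (0.051) and without any of 5 arrays, for example 0.33 (0.323) without replicate 2 of 30 days. Those 5 were both arrays of 24h (0.146 and 0.117), both of 7 days (0.0683 each) and replicate 2 of 30 days. The drop from 15 to 30 days (-0.87, adjusted p = 0.0217) was lost without replicate 1 of 15 days (0.181) or of 30 days (0.135). CYP7A1, which controls the classical route of bile acid synthesis in liver, stayed between 2.71 and 3.06 on all arrays and was not called.

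Neither of the steroid-forming P450s measured was called in any comparison. CYP17A1, which leads from progestogens to androgens, lay between 3.24 and 3.74, and CYP21A2, of corticosteroid synthesis, between 3.66 and 4.14. The summed level of 5 of 10 listed markers of steroid-forming ovarian cells was 52 to 59 over all arrays, and none of them was called against 24h; CYP17A1 and HSD3B1 are themselves among those 5. CYP26A1, which clears retinoic acid, read 3.19 and 3.24 at 24h, 3.61 and 3.73 at 7 days, 3.31 and 3.38 at 15 days, and 3.41 and 3.12 at 30 days. Its arrays at 7 days lay above all others. CYP26A1 was among the 25% of genes with the lowest mean value, where no detection call was used to tell expression from background. The 7-day rise of 0.46 ± 0.13 (SE; adjusted p = 0.0182) was lost under median centring (0.29, 0.0941) and without replicate 1 of 24h (0.0753) or replicate 2 of 7 days (0.0898).

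CYP1A2, a target of the aryl hydrocarbon receptor (AHR), stayed between 3.10 and 3.47 on the probe set named for it alone and was not called. On 2 probe sets annotated to both CYP1A1 and CYP1A2, which were not tested, values were lower at 15 days than at 24h. The first of these read 6.27 and 6.12 at 24h and 3.69 and 3.73 at 15 days. Of 4 fatty acid P450s, only CYP4V2, an omega-hydroxylase of medium-chain fatty acids, was called (46.3% of all genes in the F test). It read 5.05 and 5.60 at 24h, 5.66 and 5.29 at 7 days, 6.26 and 6.30 at 15 days and 7.01 and 7.05 at 30 days, so the first 2 times overlapped and each later one stood above. It rose by 0.96 ± 0.18 (SE) at 15 days and by 1.70 ± 0.18 at 30 days (adjusted p = 0.00245 and 4.7e-05). Its second probe set gave 0.33 at 15 days (adjusted p = 0.0664) and 0.70 at 30 days (adjusted p = 0.00137). CYP2J34, CYP4A21 and CYP4F2 lay between 3.39 and 5.15 and were not called as deposited. CYP2J34 was called higher at 30 days without replicate 1 of 30 days, against 24h (0.64, adjusted p = 0.039) and against 7 days (0.82, 0.0244), and against 7 days under centring (0.63, 0.0482). Quantile normalization called CYP4F2 higher at 30 days against 24h (0.30, 0.0402).

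Of the 8 other drug-metabolising P450s, CYP2C91 was the only one called higher against 24h on the probe set used. Of all genes 18.3%, 19.3% and 20.2% were called higher at 7, 15 and 30 days. CYP2C91, a porcine member of the CYP2C subfamily, read 7.21 and 7.41 at 24h, 8.74 and 8.62 at 7 days, 9.20 and 9.29 at 15 days and 9.47 and 9.64 at 30 days. Each time was above the one before without overlap. It rose by 1.37 ± 0.12 at 7 days, 1.94 ± 0.12 at 15 days and 2.25 ± 0.12 at 30 days (SE; adjusted p = 2.72e-05, 1.86e-06 and 4.76e-07). The other CYP2C genes measured, CYP2C33, CYP2C42 and CYP2C49, were between 2.65 and 3.93 and were not called as deposited, whereas centring called CYP2C49 lower at 7 days (-0.48, adjusted p = 0.0267) and 15 days (-0.40, 0.0474).

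CYP2D25, a porcine CYP2D gene also known to hydroxylate vitamin D, was slightly lower at 15 days (-0.39 ± 0.13 SE, adjusted p = 0.035) and at 30 days (-0.47 ± 0.13, 0.0125). It too was among the 25% of genes with the lowest mean value, and no detection call was used for it. The 15-day call was lost without replicate 1 of 24h (-0.24, 0.218) or either array of 15 days (0.11 and 0.166), under quantile normalization (-0.31, 0.0906) and with only the groups compared (0.0568). The 30-day call was lost without replicate 1 of 24h (-0.33, 0.0924) or of 30 days (0.0793), and centring called it lower at 7 days too (-0.42, 0.0263). CYP2B22 was called as deposited from 7 to 30 days only (0.71 ± 0.15, adjusted p = 0.00748). At 30 days against 24h it was called higher under quantile normalization (0.49, 0.034) and without replicate 2 of 30 days (0.65, 0.00661), and centring called it lower at 7 days (-0.46, 0.0322). From 15 to 30 days it was called higher under centring (0.57, 0.0325) and without replicate 2 of 30 days (0.69, 0.0266). CYP2A19, a nicotine and coumarin hydroxylase, was between 5.24 and 6.0 on the probe set used and not called as deposited. It was called higher at 7 days without replicate 1 of 7 days (0.68, adjusted p = 0.00694) and at 30 days with the mean of its probe sets (0.42, 0.0158), and 1 of its 4 other probe sets was called at all 3 later times (0.77, 0.81 and 1.12). CYP2E1, the ethanol-oxidising P450, stayed between 2.95 and 3.26 and was not called.

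**Figure D3:**
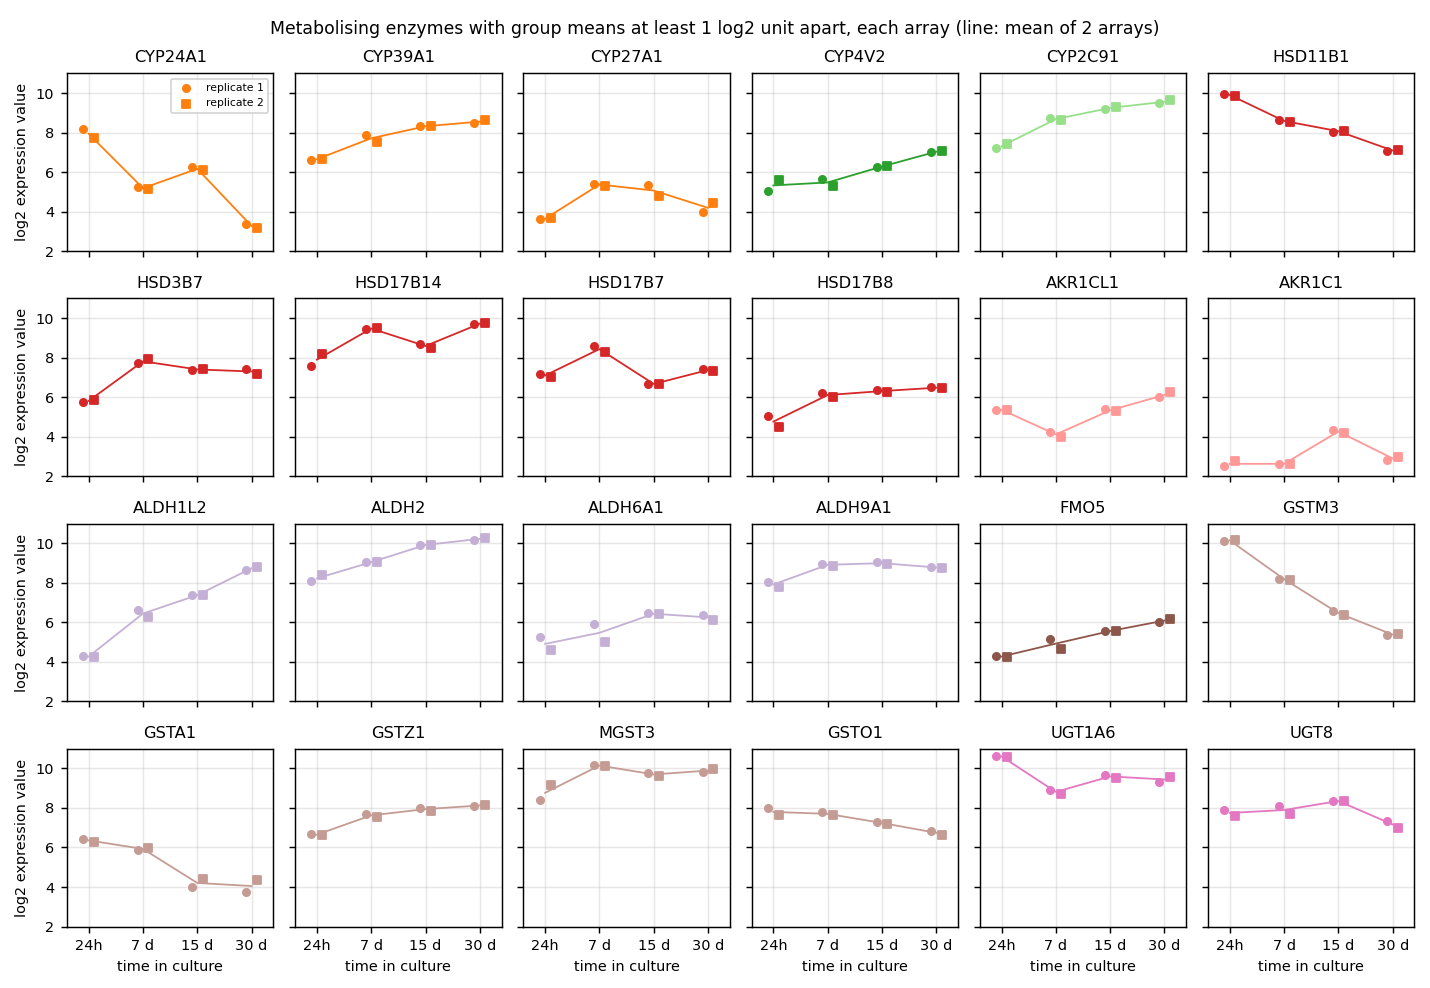
Log2 expression value on each array (circles for replicate 1, squares for replicate 2, lines through the means of 2 arrays) against time in culture, for the 24 enzymes called in the F test with group means at least 1 log2 unit apart, coloured by role. GSTM3 goes from 10.12 and 10.17 at 24h to 5.35 and 5.41 at 30 days, and ALDH1L2 from 4.30 and 4.24 to 8.67 and 8.80.

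One of 3 flavin monooxygenases was called (46.3% of all genes in the F test). FMO5, which inserts oxygen into ketones and sulfur compounds, read 4.29 and 4.25 at 24h, 5.18 and 4.67 at 7 days, 5.57 and 5.55 at 15 days and 6.0 and 6.18 at 30 days. Each time lay above the one before. It rose by 0.66 ± 0.16 (SE) at 7 days, 1.29 ± 0.16 at 15 days and 1.82 ± 0.16 at 30 days (adjusted p = 0.0102, 0.000155 and 1.16e-05). Without replicate 1 of 7 days the 7-day change was 0.40 and not called (adjusted p = 0.0545). FMO1 and FMO2, neighbours in the genome, stayed between 2.63 and 2.82 and were not called.

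Of the 8 aldehyde dehydrogenases, 4 were called higher at 7 days (18.3% of all genes) and 6 at both 15 and 30 days (19.3% and 20.2%), and 0 lower against 24h as deposited. ALDH1L2, which oxidises formyl-folate in mitochondria, read 4.30 and 4.24 at 24h, 6.64 and 6.25 at 7 days, 7.37 and 7.38 at 15 days and 8.67 and 8.80 at 30 days. Each time was clear of the one before, and the last was the highest. It rose by 2.18 ± 0.14, 3.11 ± 0.14 and 4.47 ± 0.14 at the 3 later times (SE; adjusted p = 3.59e-06, 2.23e-07 and 1.25e-08).

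ALDH2, which clears acetaldehyde in mitochondria, read 8.08 and 8.37 at 24h, 9.04 and 9.05 at 7 days, 9.90 and 9.93 at 15 days and 10.18 and 10.27 at 30 days. The times were in order and did not overlap. It rose by 0.82 ± 0.12 at 7 days, 1.69 ± 0.12 at 15 days and 2.00 ± 0.12 at 30 days (SE; adjusted p = 0.000658, 4.74e-06 and 9.9e-07), and its second probe set gave 0.82, 1.64 and 1.94. ALDH9A1, which oxidises aminoaldehydes on the way to carnitine, read 8.06 and 7.77 at 24h, 8.95 and 8.87 at 7 days, 9.04 and 8.95 at 15 days and 8.80 and 8.75 at 30 days. The 24h arrays were below all others, and those of 7 and 15 days met. It rose by 0.99 ± 0.12, 1.08 ± 0.12 and 0.86 ± 0.12 (adjusted p = 0.000216, 9.46e-05 and 0.000336).

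ALDH6A1, of valine breakdown, had arrays far apart at the first 2 times: 5.24 and 4.58 at 24h, 5.93 and 5.01 at 7 days, 6.47 and 6.40 at 15 days and 6.38 and 6.12 at 30 days. The first 2 times overlapped, and both lay below the later 2. The 7-day change of 0.56 ± 0.29 (SE) was not called (adjusted p = 0.177), though it was without replicate 2 of 7 days (1.03, 0.0171). It rose by 1.52 ± 0.29 at 15 days and 1.34 ± 0.29 at 30 days (adjusted p = 0.00207 and 0.00367).

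ALDH18A1, the first enzyme of proline synthesis, rose by 0.84 ± 0.14 (SE) at 15 days and 0.62 ± 0.14 at 30 days (adjusted p = 0.00112 and 0.00566). ALDH5A1, which closes the breakdown of the transmitter GABA, rose by 0.54 ± 0.13, 0.77 ± 0.13 and 0.72 ± 0.13 (adjusted p = 0.00926, 0.00102 and 0.00124), and its 7-day call was lost without replicate 1 of 7 days (0.42, 0.0631). ALDH16A1 (4.99 to 5.33) and ALDH3A1 (3.57 to 4.13) were not called as deposited; without replicate 2 of 7 days ALDH3A1 was called lower at 7 days (-0.45, adjusted p = 0.0452). The 2 alcohol dehydrogenases measured were not called either: ADH5, the ubiquitous formaldehyde-clearing form, was between 7.41 and 7.80, and its neighbour ADH4 between 2.89 and 3.18. Without replicate 1 of 7 days ADH5 was called lower at 7 days (-0.38, adjusted p = 0.0485), and centring gave the same change (adjusted p = 0.0343).

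Of the 12 hydroxysteroid dehydrogenases, 5 were called in the F test with group means at least 1 log2 unit apart, beside 21.3% of all genes. They moved in several patterns. HSD11B1 read 9.93 and 9.87 at 24h, 8.64 and 8.53 at 7 days, 8.03 and 8.10 at 15 days and 7.08 and 7.10 at 30 days. Each time lay below the one before. The change from 24h was -1.31 ± 0.11 at 7 days, -1.84 ± 0.11 at 15 days and -2.81 ± 0.11 at 30 days (SE; adjusted p = 1.49e-05, 1.01e-06 and 4.05e-08). HSD11B2, which inactivates cortisol and so opposes HSD11B1, stayed between 4.90 and 5.21 and was not called.

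HSD3B7, of bile acid synthesis, read 5.78 and 5.85 at 24h, 7.71 and 7.92 at 7 days, 7.40 and 7.41 at 15 days and 7.43 and 7.17 at 30 days. All later arrays were above 24h, with 7 days highest. It rose by 2.00 ± 0.13, 1.59 ± 0.13 and 1.49 ± 0.13 (SE; adjusted p = 3.77e-06, 9.62e-06 and 1.02e-05). HSD3B1, the form that makes progesterone, was between 3.08 and 3.45 and not called. The HSD3B7 result was the same in direction and call on its second probe set (2.17, 1.77 and 1.63).

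HSD17B7, which serves cholesterol synthesis and can form oestradiol, turned its direction: 7.16 and 7.04 at 24h, 8.59 and 8.28 at 7 days, 6.67 and 6.67 at 15 days and 7.42 and 7.33 at 30 days. No times overlapped, with 7 days highest and 15 days lowest. It rose by 1.33 ± 0.13 (SE) at 7 days (adjusted p = 4.16e-05), then fell by 1.76 ± 0.13 from 7 to 15 days (adjusted p = 3.66e-05). Against 24h the 15-day change was -0.43 (adjusted p = 0.0243), which was lost without replicate 1 of 24h (-0.37, 0.115) or without either array of 15 days (0.106 and 0.109). The 30-day change of 0.28 was not called.

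HSD17B14, which oxidises oestradiol, read 7.59 and 8.21 at 24h, 9.44 and 9.51 at 7 days, 8.71 and 8.47 at 15 days and 9.69 and 9.75 at 30 days. It was high at 7 and 30 days, lower at 15 days and lowest at 24h, without overlap. It rose by 1.57 ± 0.19 (SE) at 7 days and 1.82 ± 0.19 at 30 days (adjusted p = 0.000149 and 3.15e-05). The 15-day rise of 0.70 ± 0.19 (adjusted p = 0.0144) was lost without replicate 1 of 24h (0.38, 0.0821) or of 15 days (0.58, 0.111). From 15 to 30 days it rose by 1.13 ± 0.19 (adjusted p = 0.00391).

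HSD17B8, which takes part in mitochondrial fatty acid synthesis and can oxidise oestradiol, read 5.05 and 4.48 at 24h, 6.20 and 6.02 at 7 days, 6.34 and 6.28 at 15 days and 6.50 and 6.46 at 30 days. The 24h arrays were the lowest by more than their own spread. It rose by 1.35 ± 0.17, 1.55 ± 0.17 and 1.71 ± 0.17 (SE; adjusted p = 0.000236, 7.47e-05 and 2.86e-05). HSD17B13, a lipid droplet protein, was called as deposited from 7 to 30 days only (0.52, adjusted p = 0.0123), a call lost without replicate 2 of 7 days (0.0785) or of 30 days (0.0992), and centring called it lower at 7 days against 24h (-0.44, 0.0191). HSD17B10 (6.89 to 7.23), a mitochondrial dehydrogenase, and HSD17B1, HSD17B2 and HSD17B3 (2.62 to 3.81), which interconvert oestradiol and oestrone or form testosterone, were not called; centring called HSD17B1 lower at 15 days (-0.50, adjusted p = 0.0212).

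The 4 aldo-keto reductases each had a course of their own, although AKR1CL1, AKR1C1 and AKR1E2 lie next to each other in the pig genome. AKR1CL1, a relative of the AKR1C enzymes, read 5.37 and 5.36 at 24h, 4.24 and 3.99 at 7 days, 5.39 and 5.28 at 15 days and 5.99 and 6.24 at 30 days. It was lowest at 7 days and highest at 30 days, and the arrays of 24h and 15 days overlapped. It fell by 1.26 ± 0.13 (SE) at 7 days, was 0.03 below 24h at 15 days (adjusted p = 0.905) and rose by 0.75 ± 0.13 at 30 days (adjusted p = 7.16e-05 for the first and 0.00111 for the last). From 7 to 30 days the rise was 2.00 ± 0.13 (adjusted p = 4.55e-06).

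AKR1C1, whose human form inactivates progesterone, stood out at 15 days: 2.50 and 2.76 at 24h, 2.62 and 2.64 at 7 days, 4.36 and 4.17 at 15 days and 2.80 and 3.0 at 30 days. The 15-day arrays were above all others, and those of 24h and 7 days overlapped. On this probe set it rose by 1.63 ± 0.13 (SE) at 15 days (adjusted p = 1.04e-05) and fell by 1.36 ± 0.13 to 30 days (adjusted p = 0.000166), the latter lost with the mean of its probe sets (-0.37, 0.0667). The 2 other probe sets named for AKR1C1 alone held identical values between 2.69 and 2.95. They had no such rise (-0.03 at 15 days, adjusted p = 0.861). A further probe set, annotated to both AKR1C1 and LOC733635, entered no comparison. That probe set read 3.9 on both arrays of 15 days and between 3.2 and 3.5 on all others, so it was highest at 15 days. AKR1C1 was among the 25% of genes with the lowest mean value, and no detection call was used for it.

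AKR1E2, an anhydrofructose reductase, read 5.61 and 5.78 at 24h, 6.20 and 6.16 at 7 days, 5.58 and 5.70 at 15 days and 5.19 and 5.18 at 30 days. It was highest at 7 days and lowest at 30 days. The 7-day rise of 0.49 ± 0.11 (SE; adjusted p = 0.00714) was lost under quantile normalization (0.27, 0.0858), and at 30 days it fell by 0.51 ± 0.11 (adjusted p = 0.00416). With group means 0.99 apart it lay just outside the 1 log2 unit used to choose enzymes for values on every array, as GSTO1 at 1.06 lay just inside. AKR7A2, a reductase of succinic and aflatoxin aldehydes, was 0.48 ± 0.12 higher at 15 days (adjusted p = 0.0101), a call lost under centring (0.31, 0.0673) and quantile normalization (0.28, 0.113), and without replicate 2 of 24h (0.35, 0.0701) or either array of 15 days (0.0593 and 0.0616).

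All 7 glutathione transferases were called in the F test, beside 46.3% of all genes, and they parted in direction. GSTM3, of the mu class, had the widest distance between times of all 61 enzymes: 10.12 and 10.17 at 24h, 8.21 and 8.16 at 7 days, 6.57 and 6.36 at 15 days and 5.35 and 5.41 at 30 days. Every time lay well below the one before. The change from 24h was -1.96 ± 0.11 at 7 days, -3.68 ± 0.11 at 15 days and -4.76 ± 0.11 at 30 days (SE; adjusted p = 2.01e-06, 3.18e-08 and 3.36e-09). Its falls from 7 to 15 days (-1.72) and from 15 to 30 days (-1.08) were called too (adjusted p = 2.42e-05 and 0.000261).

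GSTA1, an alpha-class transferase that also isomerises steroids, read 6.44 and 6.28 at 24h, 5.89 and 5.96 at 7 days, 3.99 and 4.42 at 15 days and 3.74 and 4.36 at 30 days. The arrays of 15 and 30 days overlapped and were far below the rest. The 7-day change of -0.43 ± 0.20 (SE) was not called (adjusted p = 0.147), but was under quantile normalization (-0.62, 0.0408) and with only the groups compared (0.0488). It fell at 15 days (-2.15 ± 0.20) and at 30 days (-2.31 ± 0.20) (adjusted p = 2.75e-05 and 1.23e-05). Its second probe set gave -1.83 and -1.90.

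GSTO1, of the omega class, read 7.98 and 7.62 at 24h, 7.77 and 7.63 at 7 days, 7.31 and 7.17 at 15 days and 6.83 and 6.65 at 30 days. The first 2 times overlapped and the later 2 were lower in turn. It fell by 1.06 ± 0.14 (SE) at 30 days (adjusted p = 0.000211). The 15-day fall of 0.56 ± 0.14 (adjusted p = 0.012) was lost without replicate 1 of 24h (-0.38, 0.0861) or replicate 2 of 15 days (-0.49, 0.0915).

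GSTZ1, which isomerises maleylacetoacetate in tyrosine breakdown, read 6.68 and 6.62 at 24h, 7.69 and 7.56 at 7 days, 8.01 and 7.87 at 15 days and 8.10 and 8.15 at 30 days. Each time was above the one before. It rose by 0.98 ± 0.11, 1.29 ± 0.11 and 1.48 ± 0.11 (SE; adjusted p = 0.000113, 1.39e-05 and 3.81e-06). MGST3, a membrane-bound glutathione transferase and peroxidase, read 8.39 and 9.14 at 24h, 10.15 and 10.14 at 7 days, 9.76 and 9.63 at 15 days and 9.80 and 9.98 at 30 days. Both 24h arrays were below the rest, and they differed from each other more than those of any later time. It rose by 1.37 ± 0.21, 0.93 ± 0.21 and 1.12 ± 0.21 (adjusted p = 0.000666, 0.00552 and 0.0015). MGST3 lies beside ALDH9A1 in the genome.

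GSTK1, of the mitochondrial kappa class, rose by 0.62 ± 0.11 (SE) at 7 days and 0.59 ± 0.11 at 30 days (adjusted p = 0.00161 and 0.00145). Its 15-day call (0.34, adjusted p = 0.0319) was lost under centring (0.18, 0.218), quantile normalization (0.15, 0.325) and the trended robust variance (0.081), and without replicate 2 of 24h (0.29, 0.142) or either array of 15 days (0.0801 and 0.197). GSTA4, which conjugates hydroxynonenal from lipid peroxidation, read 6.02 and 6.97 at 24h and between 6.73 and 7.49 later, so that 1 of the 24h arrays lay among the later ones. Its rise of 0.93 ± 0.25 at 15 days (adjusted p = 0.0142) was lost without replicate 1 of 15 days (0.87, 0.0804). That of 0.69 at 30 days (adjusted p = 0.0489) was lost without any of 7 arrays (adjusted p from 0.0688 to 0.318), all but replicate 2 of 24h, and under centring (0.0525), quantile normalization (0.0762), every probe set tested (0.0506) and only the groups compared (0.0999). Leaving out replicate 2 of 24h, the higher of its arrays, gave a called 7-day rise of 0.72 (adjusted p = 0.00612).

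Among the 3 glycosyltransferases, UGT1A6, which joins glucuronic acid to small phenols, read 10.63 and 10.58 at 24h, 8.90 and 8.72 at 7 days, 9.68 and 9.51 at 15 days and 9.33 and 9.55 at 30 days. It was highest at 24h and lowest at 7 days, and 15 and 30 days overlapped between them. The change from 24h was -1.79 ± 0.13 at 7 days, -1.01 ± 0.13 at 15 days and -1.16 ± 0.13 at 30 days (SE; adjusted p = 6.08e-06, 0.000155 and 4.56e-05), and the return from 7 to 15 days was 0.79 ± 0.13 (adjusted p = 0.00287). The second probe set gave -1.89, -1.03 and -1.22.

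UGT8, which makes the glycolipid galactosylceramide and not a drug conjugate, read 7.92 and 7.57 at 24h, 8.12 and 7.67 at 7 days, 8.37 and 8.33 at 15 days and 7.33 and 7.00 at 30 days. The first 2 times overlapped, 15 days was above them and 30 days below. The fall from 15 to 30 days was 1.19 ± 0.18 on the log2 scale (SE; adjusted p = 0.0028). The rise at 15 days against 24h (0.61, adjusted p = 0.0265) was lost under centring (0.44, 0.0694) and without replicate 2 of 24h (0.43, 0.167) or either array of 15 days (0.118 and 0.0915). The fall at 30 days (-0.58, 0.0285) was lost without replicate 1 of 24h (-0.40, 0.184) or replicate 2 of 30 days (-0.42, 0.198).

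UGT2B31, of the steroid-conjugating UGT2B subfamily, was between 2.54 and 3.15 and was not called as deposited, while centring called it lower at 7 days (-0.53, adjusted p = 0.00985) and 15 days (-0.51, 0.00993), as did the trended robust variance (0.0243 and 0.0271). It was also called lower at 7 days without replicate 2 of 24h (0.0468) or replicate 1 of 7 days (0.0287), and at 15 days without replicate 2 of 24h (0.0487) or either array of 7 days (0.042). SULT2A1, the sulfotransferase of steroid precursors and bile acids, was between 2.75 and 3.19 and was not called.

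Of the 26 enzymes not called in the F test, 16 were among the 25% of genes with the lowest mean value, at or below 3.62. Their arrays lay between 2.54 and 3.81 at all times, a range in which no detection call was used here to tell expression from background. Among them were CYP7A1, CYP2E1 and SULT2A1, best known from liver, and CYP17A1, HSD3B1 and HSD17B3, best known from steroid-forming glands. The summed level of 8 of 10 listed hepatocyte markers was 127 to 169 over all arrays.

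**Figure D4:**
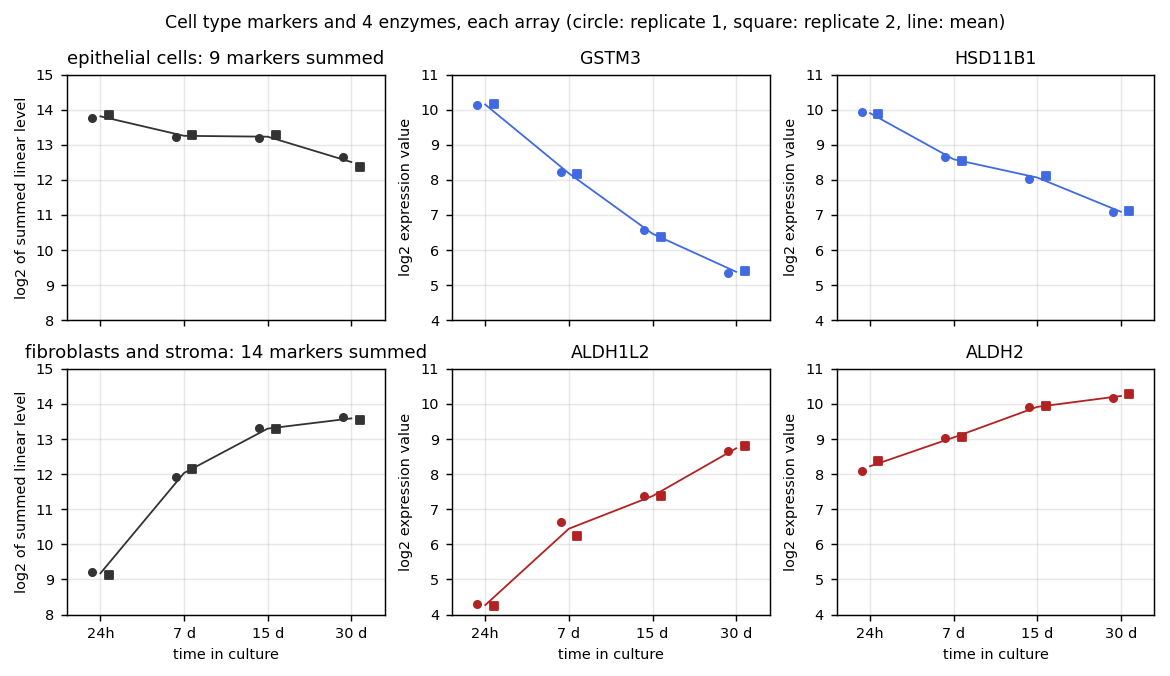
Log2 of the summed linear level of 9 epithelial markers and 14 fibroblast and stromal markers (left, black) beside the log2 expression values of 4 enzymes (blue for called lower, red for called higher against 24h), on each array against time in culture (circles for replicate 1, squares for replicate 2, lines through means). From 24h to 30 days GSTM3 and HSD11B1 go down while the epithelial sum goes from 14020 and 14692 to 6457 and 5250. From 7 to 15 days that sum goes from 9580 and 9962 to 9274 and 9944. It is weighted to the brightest markers, KRT8 (means of 11.27 and 11.85) and KRT19 (11.68 and 11.92). Of the 9 epithelial markers, 6 were called lower and 1 higher from 7 to 15 days, with a median log2 change of -1.59. Over that step GSTM3 changes by -1.72 and HSD11B1 by -0.52. From 24h to 30 days ALDH1L2 and ALDH2 go up while the stromal sum goes from 596 and 561 to 12735 and 11900. Whether the enzyme values follow the cell types was not tested.

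Regulators and partners of these enzymes, on lists chosen with earlier results of these data known, are given by counts beside the same all-gene shares as above. Of 20 regulators measured, 5 were higher and 2 lower at 7 days, 5 and 3 at 15 days and 5 and 2 at 30 days. ARNT2, a partner of the aryl hydrocarbon receptor family, rose from a mean of 3.82 to 7.96 at 30 days (4.14, adjusted p = 1.25e-08). AHR itself rose by 0.93 at 15 days (adjusted p = 0.00021), PPARA, the fatty acid receptor, by 1.11 at 7 days (adjusted p = 0.000467), and MAFF, a partner of the oxidant sensor NRF2, fell by 2.24 at 15 days (adjusted p = 1.32e-06). The xenobiotic receptors NR1I2 and NR1I3 were between means of 3.25 and 4.41 and were not called.

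Targets of NRF2 outside the 10 families were 4 higher and 7 lower of 17 at 7 days, and 4 higher and 8 lower at 15 and at 30 days, with a median change of -0.26, -0.35 and -0.19. Among them NQO1, a quinone reductase, was lower at all 3 times (-1.14, -1.53 and -1.20), while EPHX1, the epoxide hydrolase, rose by 1.46, 2.35 and 2.45, and ME1, an NADPH source, rose by 1.43, 0.61 and 0.93. ABCC2, an exporter of conjugates, rose by 1.66 at 7 days and 1.17 at 15 days and was not called at 30 days (-0.17). Of 6 AHR targets outside the families, 1 was higher and 3 lower at 7 days, and 1 higher and 4 lower at 15 and 30 days. SERPINB2, a protease inhibitor, was lower at all 3 (-4.60, -6.30 and -6.92), EREG, a growth factor, fell by 2.56 at 30 days after a rise of 0.94 at 7 days, and PTGS2, of prostaglandin synthesis, fell by 2.50 at 15 days only.

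From a list of 24 electron donor and haem genes, 14 were measured. The electron donors POR and FDX1 were not among them, whereas HMOX2 and BLVRA, of haem breakdown, and PGRMC1 and PGRMC2 were. Of the 14, 10 were higher and 0 lower at 7 days, 7 and 1 at 15 days and 8 and 2 at 30 days. Among all genes 18.3%, 19.3% and 20.2% were higher. The median change of the 14 was 0.50, 0.32 and 0.45. BLVRA and PGRMC2 were among those called higher at each time. CYB5A, cytochrome b5, rose by 1.74, 2.24 and 1.80, and FECH, which inserts iron into haem, by 1.08, 1.44 and 1.28. CPOX rose by 1.36, 0.60 and 0.48 and ALAS1, the first haem enzyme, by 0.87, 0.39 and 0.49. Among 13 transporters 6 were higher and 1 lower at 7 days, 7 and 1 at 15 days and 6 and 0 at 30 days. ABCC5 rose by 1.11, 1.82 and 2.15, SLCO2A1, the prostaglandin carrier, by 0.98, 1.38 and 0.63, and ABCC1 by 0.43, 0.84 and 0.96; ABCC2, described above, is on this list too.

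Of 19 retinoid genes outside the families, 4 were higher and 4 lower at 7 days, 7 and 4 at 15 days and 8 and 4 at 30 days. RBP4 and CRABP2, carriers of retinol and retinoic acid, were lower at 30 days (-5.44 and -4.14), whereas the retinol receptor STRA6 and the retinoic acid receptor RARB rose by 3.55 and 2.09. Of 15 steroidogenesis genes, 8 were higher and 1 lower at 7 days, 5 and 2 at 15 days and 7 and 2 at 30 days. TSPO, a cholesterol-binding protein of mitochondria, rose by 1.64, 1.99 and 1.88, and DHRS7 by 1.67, 1.82 and 2.10. STARD4, a cholesterol carrier, rose by 1.93 at 7 days and 0.76 at 30 days but not at 15 days (-0.17, not called), while PAPSS2, which makes the sulfate donor, rose by 1.59, 1.38 and 1.31.

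Steroid receptors and their chaperones were 2 higher and 4 lower of 10 at 7 days, 3 and 3 at 15 days and 3 and 5 at 30 days. The oestrogen receptor ESR1 was lower at 7 and 30 days (-1.62 and -1.08) and not called at 15 days (-0.36). The progesterone receptor PGR was lower at all 3 times (-1.08, -0.98 and -0.99), and so was the chaperone FKBP4 (-1.78, -1.78 and -2.38). The glucocorticoid receptor NR3C1 rose by 0.50 at 15 days and 1.10 at 30 days. Other conjugating and hydrolysing enzymes were 10 higher and 6 lower of 26 at 7 and 15 days and 11 and 7 at 30 days. The glutathione peroxidase GPX2 was lower at all 3 times (-4.37, -4.60 and -5.10), as was TPMT, a methyltransferase of thiopurines (-1.60, -2.83 and -3.25). EPHX2, a hydrolase of lipid epoxides, rose by 2.36, 2.26 and 2.40. The sums of epithelial and stromal markers given above moved over the same times, and their part in these list counts was not tested.

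For the 3 enzymes with the widest distance between times, the genes of most similar course over the 8 arrays were named as a description only, since the arrays share 4 times. STK10, FAM160A1 and EIF3I were closest to GSTM3 (Pearson r = 0.9988, 0.9972 and 0.9960). S100A10, DNMT1 and NTRK2 were closest to CYP24A1 (0.9872, 0.9849 and 0.9848). PRLR, RNF19A and NMNAT2 were closest to ALDH1L2 (0.9975, 0.9968 and 0.9952), and the means of PRLR, the prolactin receptor, lay 6.19 apart.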

How the data were processed

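RNA of cultured porcine oviductal epithelial cells was measured on 1-colour Affymetrix arrays, 8 arrays in 4 times, each used in the group its label gives. Each probe set's log2 value is as deposited; the authors made it with RMA, per the submitters' processing notes. Because RMA evens out the arrays' distributions, a shift shared by most genes is hidden. Version, build and filter: not given in the sources used here. Of 27558 probe sets, 11967 had 1 gene symbol in the platform annotation, 380 had several or a conflicting identifier and 15211 had none. A gene was read from its brightest probe set, by the mean of 8 arrays, which left 10900 genes. All 61 enzymes matched RefSeq genes of Sscrofa11.1 by identifier, used for names and neighbours only.

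Limma 3.58.1 in R 4.3.3 (lmFit, eBayes) was fitted to the log2 values of all 8 arrays with 1 mean per time and 4 residual degrees of freedom. P-values were two-sided and adjusted by Benjamini-Hochberg over all genes, a gene was called at an adjusted p under 0.05, and errors are SE, with a median of 0.13. The script was checked on simulated data. Values on every array were given for enzymes called in the F test with group means at least 1 log2 unit apart. From each list up to 4 called genes with the largest change were named. The enzymes and all lists were chosen with earlier results of these data known. Alternatives were centring, quantile normalization, a filter on the dimmest 25%, other probe set rules, only the groups compared, a trended robust variance, a replicate block, a 2-fold limit and leaving out each array. Promoter and protein sequences were not used here. Precision is limited by the number of arrays. Detection calls were not used here.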

Additional observations from a re-analysis of the deposited data

How the results depend on the processing

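Requiring at least a 2-fold change as well left 14, 17 and 18 enzymes at 7, 15 and 30 days against 24h, 5 from 7 to 15 days, 6 from 15 to 30 days and 11 from 7 to 30 days. That limit by its construction keeps fewer genes. Shares of all genes were not counted under it, nor for the fits without 1 array or with the replicate block. These counts therefore do not set the enzymes against other genes. In the same order of comparisons, leaving out 1 array gave 22 to 25, 23 to 31, 25 to 28, 9 to 21, 8 to 13 and 17 to 25 enzymes, and 30 to 33 in the F test. The lowest counts from 7 to 15 days were 9, 10 and 11, without replicate 2 or replicate 1 of 15 days or replicate 2 of 7 days. Of 117 alternatives to the counts, 108 stayed within 1.5 times. Of 645 alternatives to the 72 log2 changes of the 24 enzymes against 24h, 630 kept their direction and their side of the threshold, 4 passed it and 11 lost it, and 0 were reversed. The dim filter, every probe set tested, the trended robust variance, only the groups compared and the replicate block leave a log2 change as it is. For these a reversal was not possible, so the absence of reversals says nothing about them. Deviations of same-numbered arrays correlated at 0.008 to 0.268 between times. With 2 arrays at each time this cannot show whether same-numbered arrays share a pool or culture, which the labels do not state. The main fit did not pair arrays by replicate number. With that number as a block, 25, 30 and 28 enzymes were called against 24h, 20, 13 and 24 between the later times, and 34 in the F test; 23, 30, 27, 17, 12, 22 and 34 of these were also called without it. Against 24h the block ended the 30-day calls of CYP27A1 (adjusted p = 0.0585) and GSTA4 (0.0515), and it added calls of higher values for ALDH6A1 (0.56, 0.0486) and CYP2A19 (0.43, 0.0304) at 7 days and for CYP2B22 (0.41, 0.0394) at 30 days.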

Other observations

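Of the probe sets with several symbols, 2 were annotated to both CYP1A1 and CYP1A2, so they were named for neither gene and entered no comparison. The first read 6.27 and 6.12 at 24h, 4.87 and 4.79 at 7 days, 3.69 and 3.73 at 15 days and 4.10 and 3.51 at 30 days. The second read 6.60 and 6.53, 5.33 and 5.44, 4.11 and 4.32, and 4.60 and 4.03.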
